A study of Homo sapiens with 2 samples.

Results

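The 10 epithelial-mesenchymal genes described here were CDH1, EPCAM, CDH2, VIM, FN1, SNAI1, SNAI2, ZEB1, ZEB2 and TWIST1, out of 20050 protein-coding genes of the human RefSeq annotation on GRCh38. They were taken by name, by a rule that uses no measured value, but with earlier results of these data known. Each was searched for listed CUT & Tag peaks inside the gene or within 3 kb of either end. CUT & Tag brings a transposase to an antibody on chromatin, and places where the sequenced fragments gather are listed as peaks. The antibody was against the Flag tag, and the cells were TFK-1, a line of human extrahepatic cholangiocarcinoma. In the HOXA5 overexpression group the cells had been transduced with a lentivirus for Flag-tagged HOXA5, a homeobox transcription factor. The other group is labelled normal control. The paper describes control lentiviruses and puromycin selection for its stable lines, but does not say which control cells were used for CUT & Tag. Each group had 1 library, so every difference between the groups is a difference between 2 libraries, with no replicate check and no test.

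In epithelial-mesenchymal transition, cells lose junctions that hold an epithelium together and take on the shape and motility of mesenchymal cells. E-cadherin (CDH1) and EpCAM (EPCAM) join epithelial cells, whereas N-cadherin (CDH2), the filament protein vimentin (VIM) and the matrix protein fibronectin (FN1) mark the mesenchymal state. The SNAI, ZEB and TWIST transcription factors bind E-box sequences and are known repressors of CDH1. A peak says where tagged protein or background signal lay, not whether a gene was expressed, and the lists hold no expression values by which the identity of the cells could be checked.

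The HOXA5 overexpression library held 15778555 fragments and its list 8043 peaks, and the control library held 1948734 fragments, which was 12.4% of the former, and its list 635 peaks. Depth therefore differed between the groups and cannot be told apart from the treatment. At the HOXA5 gene itself, the HOXA5 overexpression list held a peak inside the gene, 7 bp from an end, where 44 fragments piled up, in which the lentiviral copy was not told apart, and the nearest control peak lay 4711092 bp away. Pileup is the number of fragments over the highest point, or summit, of a peak and is not scaled for depth. Fold enrichment compares that height with the signal around the peak within 1 library, and the −log10 q-value is the significance the peak caller assigned. In the HOXA5 overexpression list the median pileup was 17 fragments and the median fold enrichment 4.82, with a range of 1.11 to 35.6.

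Of the 10 genes, 3 had a HOXA5 overexpression peak, namely CDH1, VIM and SNAI2, and none had a control peak. The exact 95% binomial interval of this share was 6.67% to 65.2%, for counting error only. Across all protein-coding genes, 20.7% had a HOXA5 overexpression peak by the same rule and 0.713% had a control peak. The background share lay inside the interval of the 10 genes. That interval treats the genes as alike, although they were taken by name and differ in length. It is a description and not a test, and 3 of 10 is not read as a departure from 20.7%. A peak within 3 kb of an end was present at VIM and SNAI2, 2 of the 10 genes, against 15.0% of all protein-coding genes, and both peaks also lay within 1 kb of an end, against 13.0%. Each of the 3 genes had a single peak, as did 84.5% of the protein-coding genes that had any.

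**Figure D1:**
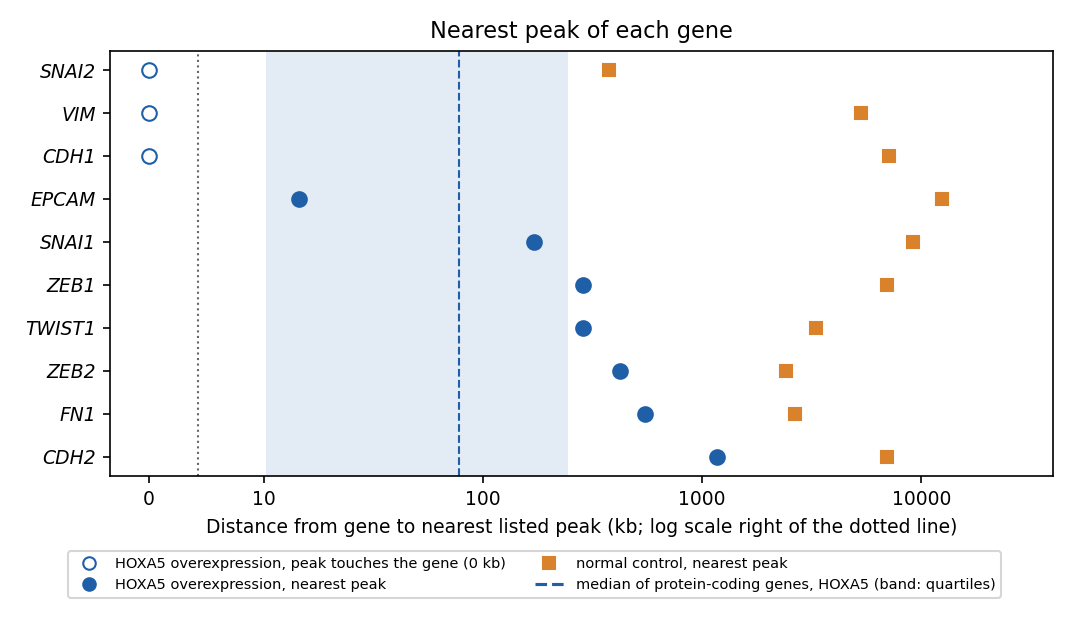
Distance in kb from each of the 10 genes (rows) to the nearest listed peak, with circles for the HOXA5 overexpression list and squares for the control list; open circles at 0 are genes with a peak inside or across an end, the axis is logarithmic right of the dotted line, and the dashed line and band are the median and quartiles over all protein-coding genes in the HOXA5 overexpression list. CDH1, VIM and SNAI2 sit at 0, EPCAM at 14.6 kb, and ZEB1, TWIST1, ZEB2, FN1 and CDH2 lie beyond the band.

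Longer genes have more room for a peak, and the 10 genes ran from 3832 bp for SNAI2 to 244252 bp for CDH2. Among protein-coding genes under 10 kb, 11.5% had a HOXA5 overexpression peak, and of the 4 genes of that length here, VIM and SNAI2 had a peak while SNAI1 and TWIST1 had none. EPCAM, the only gene here of 10 to 50 kb, had no peak, and the share among all genes of that length was 19.7%. Between 50 and 100 kb the share was 26.0%, and of the 2 genes here CDH1 had a peak and FN1 had none. From 100 to 250 kb the share was 31.4%, the highest of these length classes, and none of the 3 genes here, CDH2, ZEB1 and ZEB2, had a peak. The 3 peaks were thus in 2 of the shortest genes and in a gene of intermediate length.

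Promoter sequences from RefSeq (GRCh38.p14) were matched for 5 of the 10 genes, VIM, FN1, ZEB2, CDH2 and ZEB1, in windows from 250 bases before to 50 bases after a gene start. The VIM window is shown because the VIM peak began 78 bp past its end, and those of FN1 and ZEB2 as promoters with no peak near them. The fourth window belongs to JUP, which encodes the junction protein plakoglobin, because a peak covered all 300 of its bases. Capitals mark TAAT, the short core that homeobox proteins recognise, read on both strands as TAAT or ATTA with overlaps allowed.
VIM (chr10:17227991-17228290, plus strand): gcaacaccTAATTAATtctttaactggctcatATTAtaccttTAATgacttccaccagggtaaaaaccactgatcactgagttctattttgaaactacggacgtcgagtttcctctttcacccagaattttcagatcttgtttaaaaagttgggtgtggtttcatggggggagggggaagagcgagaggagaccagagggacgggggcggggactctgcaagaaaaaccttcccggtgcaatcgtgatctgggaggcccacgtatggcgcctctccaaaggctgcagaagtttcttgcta
FN1 (chr2:215436019-215436318, minus strand): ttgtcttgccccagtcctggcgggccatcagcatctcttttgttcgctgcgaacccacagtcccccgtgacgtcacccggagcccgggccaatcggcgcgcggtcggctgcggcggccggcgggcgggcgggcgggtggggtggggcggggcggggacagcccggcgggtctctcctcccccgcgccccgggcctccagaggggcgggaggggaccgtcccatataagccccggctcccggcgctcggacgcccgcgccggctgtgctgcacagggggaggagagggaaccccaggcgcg
ZEB2 (chr2:144520070-144520369, minus strand): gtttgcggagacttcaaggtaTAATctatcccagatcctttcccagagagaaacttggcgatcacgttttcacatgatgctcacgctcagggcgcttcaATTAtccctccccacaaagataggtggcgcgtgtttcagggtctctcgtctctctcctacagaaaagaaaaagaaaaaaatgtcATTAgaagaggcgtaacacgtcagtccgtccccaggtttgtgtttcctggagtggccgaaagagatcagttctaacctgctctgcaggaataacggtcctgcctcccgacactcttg
JUP (chr17:41786662-41786961, minus strand): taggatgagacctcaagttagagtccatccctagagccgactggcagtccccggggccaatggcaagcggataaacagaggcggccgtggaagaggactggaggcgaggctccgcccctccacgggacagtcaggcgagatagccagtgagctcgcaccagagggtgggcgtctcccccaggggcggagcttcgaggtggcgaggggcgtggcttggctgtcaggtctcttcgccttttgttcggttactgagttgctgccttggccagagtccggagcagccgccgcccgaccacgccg

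The VIM window held 5 matches to TAAT, all in its far upstream part, and there 3 of them overlapped in TAATTAAT. That stretch also holds the longer motif TAATTA, which reads the same on both strands and began 242 bases upstream of the start. FN1 and JUP had no match to TAAT, and ZEB2 had 3. Over all 35116 RefSeq windows of this length, 50.2% held TAAT and 4.84% held TAATTA. In the 2892 windows that overlapped a HOXA5 overexpression peak, 39.7% held TAAT and 2.14% held TAATTA. Those windows were also richer in G and C, with a median of 63.3% against 58.7% in all windows, and the part of base composition in the shares was not tested. The GC content was 48.0% for VIM, 49.0% for ZEB2, 65.3% for JUP and 76.7% for FN1. The E-box CACCTG, read on both strands as CACCTG or CAGGTG, was in none of the 4 windows shown, in 20.6% of all windows and in 14.5% of those that overlapped a HOXA5 overexpression peak. It had 1 and 3 matches in 2 of the ZEB1 windows and 2 matches in a second JUP window, which is not shown. Among the other members, the 2 CDH2 windows held 1 and 2 matches to TAAT, and the 7 ZEB1 windows held 0 or 1 each. A match of this kind is a description of the letters, not a binding site.

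CDH1, the gene of E-cadherin, had its peak well inside the gene. CDH1 spans chr16:68737292-68835537 (98246 bp), and the peak lay at chr16:68760803-68761235 with its summit 23716 bp from the left end, at 24.1% of the gene's length. The pileup was 15 fragments in the HOXA5 overexpression library (exact 95% Poisson interval 8.40 to 24.7, for counting error only), the fold enrichment was 4.83 and the −log10 q-value was 4.92. By fold enrichment it ranked 3987 of 8043, close to the middle of the list, with 50.4% of peaks lower. No exon or intron is given, since the gene table used here holds neither. The control list held no peak nearer than 7151059 bp.

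CDH1 also lay in a stretch with further peaks. On its left, 29313 bp away, a peak inside the neighbouring cadherin gene CDH3 was 3.93-fold enriched at a pileup of 13 fragments. On its right, 8067 bp away, a peak just inside TANGO6 was 4.67-fold enriched at a pileup of 17 fragments. In all, 4 peaks lay within 250 kb of an end of CDH1, against a median of 1 for protein-coding genes. That was the highest number among the 10 genes, but genes with a strand given were searched from the start only. Within 500 kb the order differed, with 6 peaks for SNAI1, 5 each for VIM and EPCAM and 4 for CDH1. The pileups of the 3 neighbouring peaks differed by less than their counting intervals.

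EPCAM, whose product is an epithelial adhesion protein, had no peak inside it or within 3 kb, but of the 7 genes without a peak it lay closest to one. EPCAM spans chr2:47369311-47387020 (17710 bp), and the nearest HOXA5 overexpression peak lay 14559 bp to its left at chr2:47354388-47354752, outside any gene of the table. That peak was 4.91-fold enriched at a pileup of 18 fragments (10.7 to 28.5), with 52.7% of peaks lower. Among protein-coding genes, 27.4% had a peak nearer than EPCAM did. On the right of EPCAM the next peak was 519606 bp away, and the nearest control peak was 12389764 bp away, the farthest of the 10 genes.

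**Figure D2:**
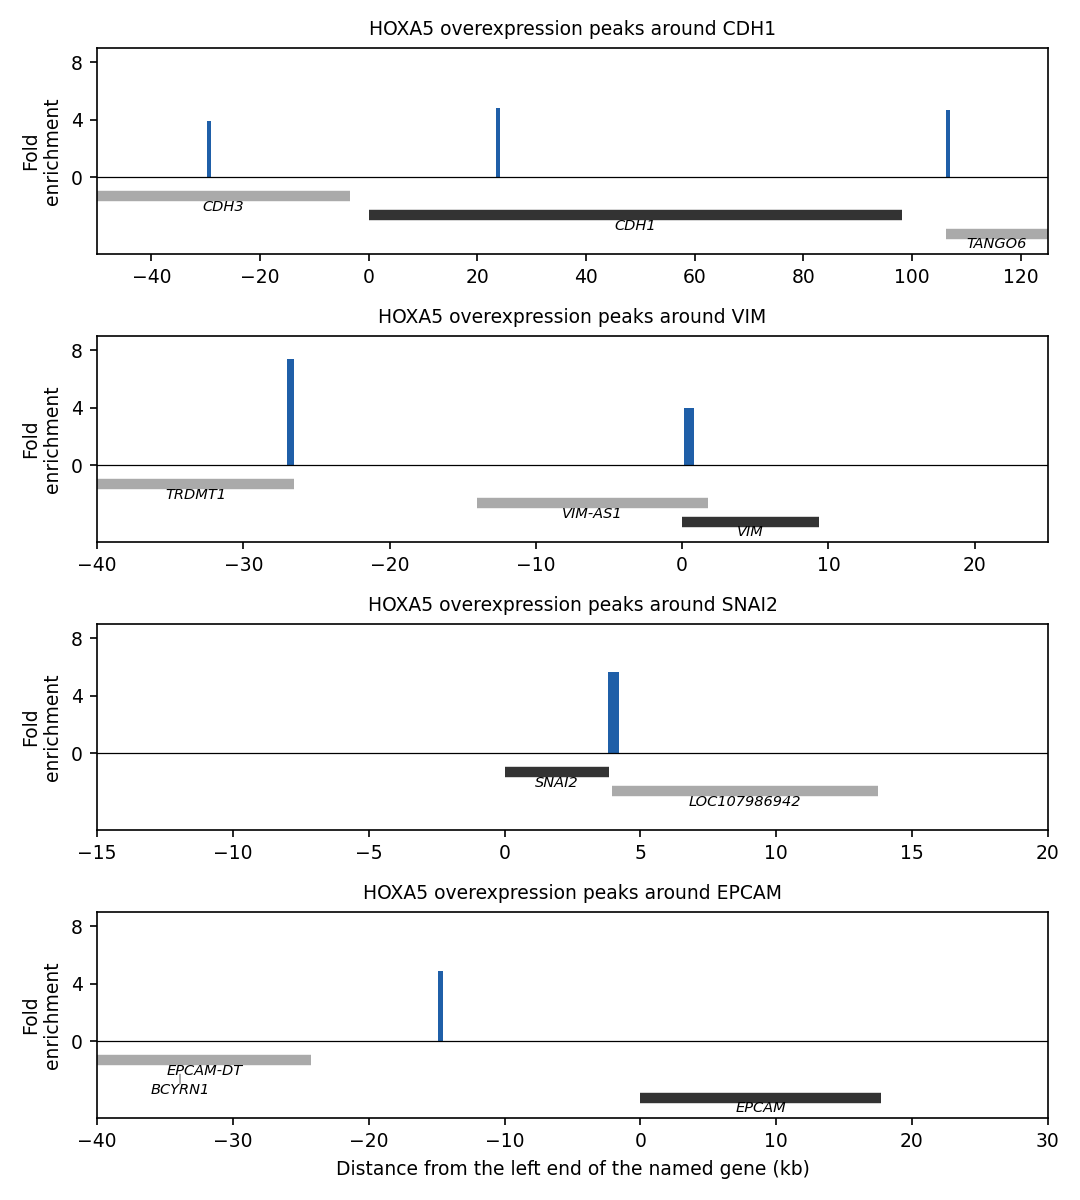
HOXA5 overexpression peaks (blue bars, height in fold enrichment) around CDH1, VIM, SNAI2 and EPCAM, with distance in kb from the left end of the named gene, the named gene in black and neighbouring genes in grey; bars of narrow peaks are widened to stay visible. The CDH1 peak lies inside the gene, the VIM peak just inside its left end, the SNAI2 peak across its right end and the EPCAM peak 14.6 kb to the left of the gene.

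Of the mesenchymal genes VIM, CDH2 and FN1, only VIM had a peak. VIM spans chr10:17228241-17237593 (9353 bp, plus strand), and its peak at chr10:17228368-17229082 began 127 bp inside the gene from its start, with the summit 375 bp from the start. The peak was 715 bp long, against a median of 383 bp in the list. Its pileup of 18 fragments (10.7 to 28.5) was the highest of the 3 peaks at these genes, whereas its 4.02-fold enrichment was the lowest, with 21.5% of peaks lower. The local background recovered from pileup and fold enrichment was 3.73 fragments there, 2.59 times the genome-wide level of the library, and the −log10 q-value was 4.32. The position of the peak is shared with the antisense gene VIM-AS1, and the data do not tell these genes apart.

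A stronger peak lay to the left of VIM. It was 26531 bp away at chr10:17201233-17201710, across an end of TRDMT1, which encodes a tRNA methyltransferase. Its pileup of 20 fragments (12.2 to 30.9) was close to that of the VIM peak, but its fold enrichment was 7.38, above 90.9% of the list, over a local background of 1.85 fragments. The pileups of the VIM and TRDMT1 peaks thus differed by less than their counting intervals, while the local background was lower at TRDMT1. Within 250 kb of the VIM start there were 3 HOXA5 overexpression peaks and no control peak, and the nearest control peak was 5325589 bp away.

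CDH2 and FN1 lay far from any listed peak. CDH2, the gene of N-cadherin, spans chr18:27932879-28177130 (minus strand), and its nearest HOXA5 overexpression peak was 1175265 bp to the left, at 4.31-fold enrichment and a pileup of 10 fragments (4.80 to 18.4). On the right the next peak was 2518482 bp away, so that CDH2 lay in a stretch of 3937997 bp without a listed peak. Of all protein-coding genes, 3.09% lay farther from a peak. Chromosome 18 had a peak at 17.4% of its 270 protein-coding genes, the lowest share among the 7 chromosomes that carry these 10 genes, which ran up to 26.2% on chromosome 10.

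FN1, the fibronectin gene, spans chr2:215360865-215436068 (minus strand). Its nearest peak lay 550678 bp to the left, 42 bp from an end of the noncoding gene SNHG31, at 6.06-fold enrichment and a pileup of 19 fragments (11.4 to 29.7). The next on the right was 678507 bp away inside XRCC5, which encodes a DNA repair protein. No HOXA5 overexpression peak lay within 500 kb of the start of FN1 or of CDH2, as for 12.6% of protein-coding genes. The nearest control peaks were 2659296 bp from FN1 and 6993250 bp from CDH2.

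Of the 5 transcription factor genes, SNAI2 had a peak and SNAI1, ZEB1, ZEB2 and TWIST1 had none. SNAI2, which encodes the zinc finger repressor Slug, spans chr8:48917598-48921429 (3832 bp). Its peak at chr8:48921399-48921810 crossed the right end of the gene, with the summit 292 bp outside. The pileup was 14 fragments (7.65 to 23.5), the lowest of the 3 peaks at these genes. The fold enrichment of 5.66 was the highest of the 3, with 71.8% of the list lower, over a local background of 1.65 fragments, 1.15 times the genome-wide level, and the −log10 q-value was 5.91. The peak also overlapped the noncoding gene LOC107986942, which begins beside SNAI2.

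The SNAI2 peak stood alone. The next HOXA5 overexpression peaks were 1564134 bp to the left and 1456853 bp to the right of the gene, so it was the only peak in a stretch of 3024817 bp. Their pileups were 10 and 8 fragments. SNAI2 was also the gene of the 10 with the nearest control peak, at 376887 bp, at 4.89-fold enrichment and a pileup of 5 fragments. No base of the SNAI2 peak was shared with a control peak.

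**Figure D3:**
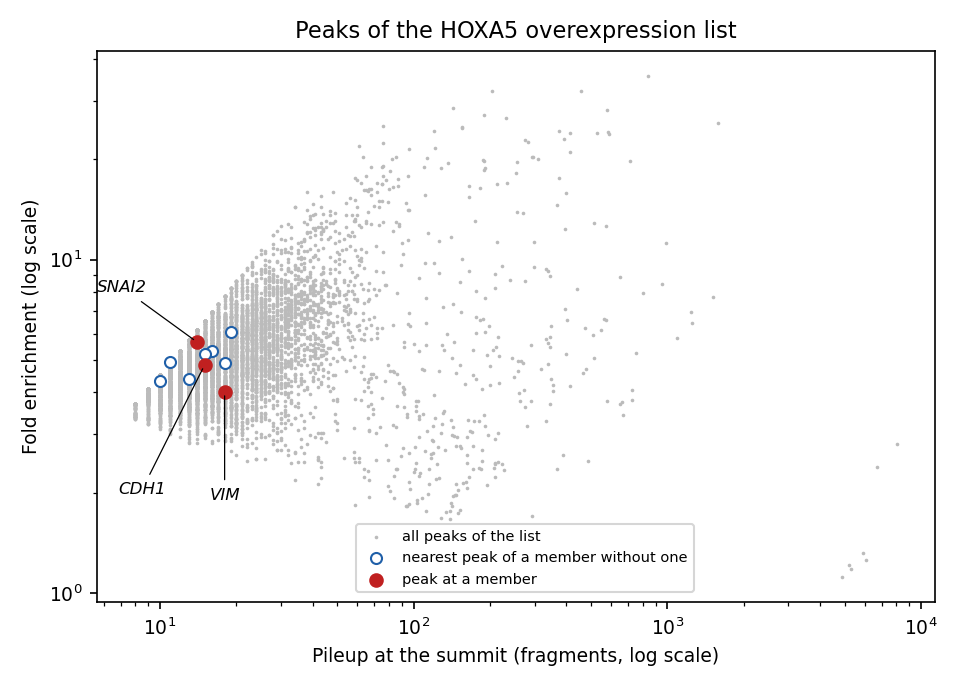
Fold enrichment against pileup at the summit (fragments), both on log axes, for each of the 8043 peaks of the HOXA5 overexpression list (grey), the 3 peaks at CDH1, VIM and SNAI2 (red) and the nearest peak of each of the 7 genes without one (open blue). All 10 marked peaks lie between pileups of 10 and 19, and the red points run from 4.02-fold at VIM to 5.66-fold at SNAI2.

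SNAI1, which encodes the related repressor Snail, lay between peaks at similar distances. It spans chr20:49982980-49988886, and the nearest peak was 170419 bp to the left, by an end of the ion exchanger gene SLC9A8, at 5.31-fold enrichment and a pileup of 16 fragments (9.15 to 26.0). On the right, 176965 bp away, a peak across an end of LINC01275 was 6.11-fold enriched at a pileup of 26 fragments. Of all protein-coding genes, 67.1% had a nearer peak. Within 250 kb of SNAI1 there were 3 peaks, and within 50 kb none.

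ZEB1 and ZEB2, which encode zinc finger homeobox repressors, were both long genes without a peak. The nearest peak of ZEB1 (chr10:31318417-31529804, plus strand) was 286482 bp to the left, inside the zinc finger gene ZNF438, at 4.39-fold enrichment and a pileup of 13 fragments (6.92 to 22.2). That of ZEB2 (chr2:144384081-144520119, minus strand) was 422557 bp to the right, inside the noncoding gene TEX41, at 5.22-fold enrichment and a pileup of 15 fragments (8.40 to 24.7). Peaks were nearer for 78.0% and 85.6% of protein-coding genes, respectively. On their other sides the next peaks were 398913 bp from ZEB1 and 1509337 bp from ZEB2.

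TWIST1, which encodes a basic helix-loop-helix factor, spans chr7:19113047-19117636. Its nearest peak lay 287342 bp to the right, inside the noncoding gene LOC105375179, at 4.92-fold enrichment and a pileup of 11 fragments (5.49 to 19.7). The next on the left was 559890 bp away inside HDAC9, a histone deacetylase gene beside TWIST1. Of all protein-coding genes, 78.1% had a nearer peak. The distances of ZEB1 and TWIST1 were thus nearly the same, and SNAI2 was the only gene of the 5 with a peak within 50 kb.

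Taken over the 10 genes, the median distance to a HOXA5 overexpression peak was 228450 bp, against 77692.5 bp for protein-coding genes, whose quartiles were 10303.5 and 245701 bp. The distances were thus spread to both sides, with 3 genes at 0 and 5 genes, ZEB1, TWIST1, ZEB2, FN1 and CDH2, beyond the upper quartile. The same 5 genes had no peak within 250 kb of the start, or of either end where no strand was given, as did 26.9% of protein-coding genes. None of the 10 lay between the 3 kb limit and EPCAM at 14559 bp, so the count of genes with a peak did not turn on the exact limit in that range. For the control list the median distance over protein-coding genes was 4431040 bp, and the 10 genes ran from 376887 to 12389764 bp.

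The absence of control peaks has to be read with the depth of that library. Scaled by the ratio of the library totals, the pileups at CDH1, VIM and SNAI2 correspond to 1.85, 2.22 and 1.73 fragments in the control library. The lowest pileup of any listed control peak was 4 fragments. Regions of equal density would therefore have lain below every listed control peak, and a difference between the libraries was not detectable at these 3 genes. Of the 8043 HOXA5 overexpression peaks, 1062 had a scaled pileup of at least 4 fragments. Where the local background is higher, a pileup above 4 may be needed for a peak to be listed.

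A wider list of 64 genes of the same biology was searched in the same way, with 23 epithelial, 23 regulator and 18 mesenchymal genes. HOXA5 overexpression peaks were at 12 of the 64 genes (18.8%, interval 10.1% to 30.5%), which is close to the 20.7% of all protein-coding genes. Of these 64 genes, 59 are protein-coding and 5, all in the regulator class, encode microRNAs. The 3 regulators with a peak were thus among 18 protein-coding ones, and the background share covers protein-coding genes only. The genes held 28 peaks, and none shared a base with a control peak. By class, 6 of 23 epithelial genes (26.1%), 3 of 23 regulators (13.0%) and 3 of 18 mesenchymal genes (16.7%) had a peak, and each class interval held the background share. A peak within 3 kb of an end was present at 4 of the 64 genes, KRT8, TJP1, JUP and AXL. The share over protein-coding genes was 15.0%, and a departure from it was not tested. By strand, the end peaks at KRT8, TJP1 and AXL lay beyond the end opposite the gene start, and only the JUP peak was at a start. The median distance to a peak was 42793 bp for the epithelial genes, 68060.5 bp for the mesenchymal genes and 162933 bp for the regulators. The regulator median includes the microRNA genes.

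The epithelial genes with a peak were KRT8, TJP1, JUP, GRHL2, CDH3 and MUC1. KRT8, a keratin of simple epithelia, had 3 peaks with pileups of 20 to 26 fragments, the highest fold enrichment being 4.24. TJP1, which encodes a scaffold of tight junctions, also had 3, of which the one 794 bp beyond its left end had the highest fold enrichment, 5.91. GRHL2, an epithelial transcription factor, had 2 peaks deep inside the gene with 4.89-fold and 5.07-fold enrichment. MUC1, a mucin of the cell surface, had 1 peak inside the gene at 4.82-fold enrichment and a pileup of 29 fragments. CDH3 had the peak next to CDH1 described above. The JUP peak (chr17:41786505-41786963) crossed the gene start and covered the promoter shown above. It was 3.79-fold enriched, with 14.3% of peaks lower, over a local background 2.98 times the genome-wide level. The claudin genes CLDN1, CLDN3, CLDN4 and CLDN7, the keratin genes KRT7, KRT18 and KRT19, and CTNNB1, the gene of beta-catenin, had no peak by this rule.

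**Figure D4:**
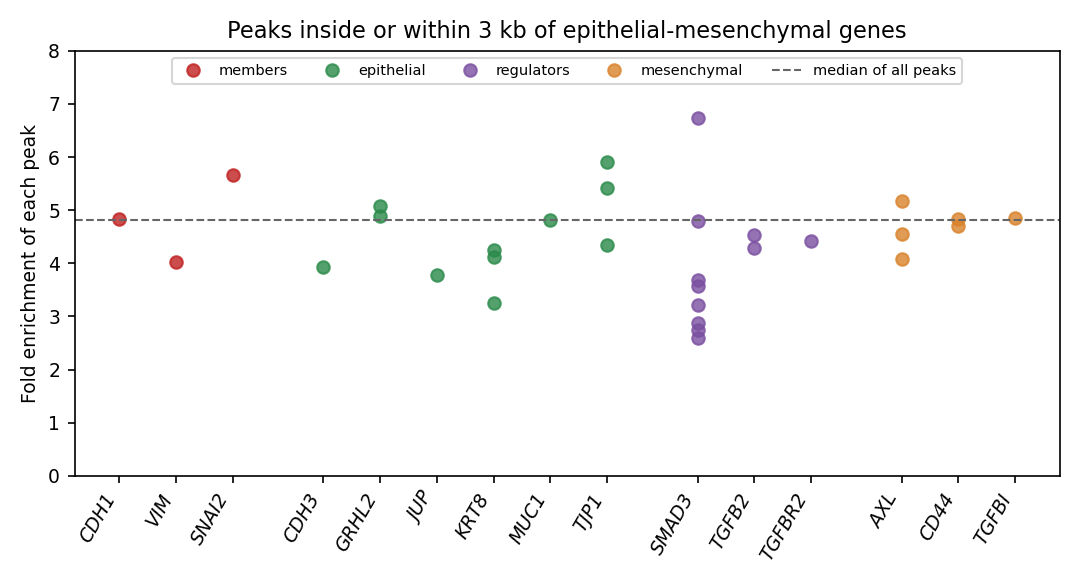
Fold enrichment of each HOXA5 overexpression peak (points) inside or within 3 kb of CDH1, VIM and SNAI2 and of the 12 genes of the wider list that had a peak, coloured by class, with the median of all peaks of the list dashed at 4.82. SMAD3 has 8 points, more than any other gene shown, from 2.59 to 6.73.

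The regulators with a peak were SMAD3, TGFB2 and TGFBR2, which act in TGF-beta signalling, a known inducer of the transition. SMAD3, which carries the TGF-beta signal to the nucleus, had 8 peaks, all inside the gene, with pileups of 16 to 70 fragments. Only 6 protein-coding genes had 8 or more peaks. Apart from the strongest, the SMAD3 peaks had fold enrichments of 2.59 to 4.80, below the list median of 4.82. The local background at the SMAD3 peaks was 2.61 to 8.58 times the genome-wide level. The strongest, at chr15:67150147-67150752, had a pileup of 70 fragments (54.6 to 88.4), a 6.73-fold enrichment above 86.5% of the list and a local background of 9.55 fragments, 6.64 times the genome-wide level. Scaled to the control depth it corresponds to 8.65 fragments, above the lowest listed control pileup of 4, and no control peak lay there. The control peaks of 4 fragments at TGFB2 and ACTA2 lay over 1.18 and 1.04 times the control genome-wide level. A pileup of 4 is therefore not the level needed at the SMAD3 position. The control peak nearest to ZEB1 had a pileup of 9 fragments over 5.56 times the control genome-wide level. The level needed at SMAD3 was not determined, and a difference between the libraries there was not tested. TGFB2, a ligand, had 2 peaks with 4.53-fold and 4.29-fold enrichment, and TGFBR2, a receptor, had 1 with 4.42-fold enrichment.

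The remaining regulators had no HOXA5 overexpression peak, including TGFB1, TGFBR1, SMAD2, SMAD4 and SMAD7 of the same pathway. The microRNA genes of the miR-200 family, known to repress ZEB1 and ZEB2, had none either. MIR200C and MIR141 lay 19508 and 19906 bp from a peak, and MIR200A, MIR200B and MIR429 lay 428678 to 430579 bp from one.

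The mesenchymal genes with a peak were AXL, CD44 and TGFBI. AXL, a receptor tyrosine kinase, had 2 peaks inside it with 4.55-fold and 4.09-fold enrichment. A further peak 1751 bp beyond its right end was 5.17-fold enriched at a pileup of 44 fragments, and lay inside the neighbouring gene HNRNPUL1. CD44, a receptor for hyaluronan, had 2 peaks with 4.69-fold and 4.83-fold enrichment, and TGFBI, a matrix protein induced by TGF-beta, had 1 with 4.84-fold enrichment. In the control list, 2 of the 64 genes had a peak, each with a pileup of 4 fragments. The control peak in TGFB2 lay at another position than its HOXA5 overexpression peaks, and ACTA2, the gene of smooth muscle actin, had a control peak and no HOXA5 overexpression peak within 227116 bp.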

How the data were processed

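The analysis began from the deposited peak lists of both libraries. The paper reports fewer peaks for the HOXA5 overexpressing cells than the 8043 listed, so shares and ranks here belong to the deposited lists. The submitters' processing notes name fastp, Bowtie2, deepTools, MACS2, ChIPseeker and GRCh38. Per the file headers, duplicates were removed and the authors called peaks in each library alone with MACS 2.2.7.1 (paired-end fragments, q-value of 0.05, genome size 2.7e+09, background over 10000 bp, no control file). The deposited tables give each peak's pileup signal in fragments, unscaled for depth, its −log10 p-value and q-value, and its fold ratio over local background. A further deposited version holds a whole-number score from the q-value and was used only to check that all 8043 and 635 peaks were the same.

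Peaks were placed on RefSeq genes (GRCh38.p14) by distance to the gene, with strand only where RefSeq promoters gave it (15843 genes). No genome sequence was used, so exons, introns and peak sequences were not analysed here. The local background was (pileup + 1) / fold − 1. Shares have exact binomial and pileups exact Poisson 95% intervals, and peaks and genes are not independent replicates. With 1 library per group no test was made. The code for distances and counts of peaks per gene was tested on simulated intervals, but that for bases shared between the lists was not. All 10 genes are given with values. Of the wider list every gene with a peak is named, with values for the 10 of highest fold enrichment. CDH3 and JUP were outside these 10, and their values are given where their peaks are described. The genes and lists were chosen with earlier results of these data known. Genes outside this rule that are named without a peak were chosen after their values were seen. Alternatives were other windows, a q-value of 0.001, fold enrichment at or above the median, the summit, unshared peaks, gene ends and gene starts. Python 3.11.15, NumPy 2.4.6, SciPy 1.17.1, pandas 2.3.3 and Matplotlib 3.10.9 were used.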

Additional observations from a re-analysis of the deposited data

How the results depend on the processing

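With a window of 1 kb or 10 kb, a q-value of 0.001 or less, the summit in place of the edge, or only peaks unshared with the control, the same number of genes, 3 of 10, had a HOXA5 overexpression peak. Keeping peaks with at least the median fold enrichment left 2 (VIM was lost), and so did peaks within 3 kb of a gene end (CDH1 was lost). Peaks within 3 kb of the gene start left 1 of the 5 genes with strand. The share of protein-coding genes moved to 19.6% at 1 kb, 24.8% at 10 kb, 17.9% at the stricter q-value, 11.2% with at least the median fold enrichment, 15.0% at gene ends and 14.5% at gene starts. The wider list went from 12 genes to 18 at 10 kb, to 6 at or above the median and to 4 at gene ends. The control count was 0 under each alternative run for it. Nearest distances kept within 1.5 times in 9 of 10 genes with at least the median fold enrichment, in 9 with the summit and in all 10 at the stricter q-value. Counts around starts moved for 2 genes at 50 kb and 6 at 500 kb. These settings change which peaks or distances count, by construction. Depth limits what the control list can show, and 1 library per group leaves every difference without a replicate check. No paired analysis was possible because each group has 1 library and no result comes from a test.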

Other observations

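Gene families related to the epithelial-mesenchymal genes were counted by the same rule after the values above had been seen, and are given as a description, with exact 95% binomial intervals for counting error only. Over all protein-coding genes the share with a HOXA5 overexpression peak was 20.7%. It was 11.5% for genes under 10 kb, 19.7% from 10 to 50 kb, 26.0% from 50 to 100 kb and 31.4% from 100 to 250 kb. Of 23 cadherin genes, with a median length of 140 kb, 6 had a peak (26.1%, interval 10.2% to 48.4%), namely CDH1, CDH3, CDH4, CDH13, CDH15 and CDH23. Among 12 laminin genes, with a median of 102 kb, 3 had a peak (interval 5.49% to 57.2%), namely LAMA3, LAMA4 and LAMB4. Both intervals held the share of all protein-coding genes and that of genes of 100 to 250 kb.

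Collagen genes were about as long as cadherin genes by the median, 145 kb, and 5 of 44 had a peak (11.4%, interval 3.79% to 24.6%). The interval held the share of all protein-coding genes and lay below that of genes of 100 to 250 kb. Collagen genes also include shorter ones, such as COL1A1 (17531 bp) and COL3A1 (38374 bp), so that class is not matched to them. Of 26 integrin genes, with a median of 66.4 kb, 4 had a peak (15.4%, interval 4.36% to 34.9%). The strongest by fold enrichment was at ITGB5, at 7.85-fold and a pileup of 34 fragments, followed by ITGB8 at 7.22-fold and 19 fragments. Matrix metalloproteinase genes, with a median of 12.7 kb, had a peak at 2 of 23 (8.70%, interval 1.07% to 28.04%), and claudin genes, with a median of 3.39 kb, at 2 of 24 (8.33%, interval 1.03% to 27.0%). Keratin genes, with a median of 6.43 kb, had a peak at 3 of 55 (5.45%, interval 1.14% to 15.1%), which lay below the share of all protein-coding genes and held that of genes under 10 kb. Genes of a family often lie side by side and are not independent. They also differ in length, and no share matched for length was computed. In the control list, 1 integrin gene had a peak and no gene of the other 6 families did.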
